A study of Mus musculus with 10 samples.

Results

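The RNA of sorted mouse platelets was examined here for 7 genes of chloride transport and membrane lipid scrambling: the CLC genes Clcn3, Clcn5, Clcn6 and Clcn7, the chloride intracellular channel genes Clic1 and Clic4, and the anoctamin gene Ano6. They were taken by symbol from the 23420 rows of the deposited count table, and all 7 had a row. Clcn3 was chosen for its lower level in Tomato+ platelets, so its difference between the fractions is a description with no test. The other 6 were chosen by family, with results of these libraries known.

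Platelets, the anucleate blood fragments that megakaryocytes shed, were sorted by flow cytometry from the blood of adult mice into a fraction with the red fluorescent protein Tomato (Tomato+, 5 libraries) and a fraction without it (Tomato-, 5 libraries). Neither fraction is labelled with a treatment, and the strain, the exact age, the gene or cell type that drives Tomato, and whether animals were pooled are not stated. Polyadenylated RNA was amplified with a Smart-seq+ protocol and sequenced to between 5.41 and 16.2 M counts per library (M, 1000000 counts). The labels do not say that libraries of a fraction came from separate animals, so the spread that p-values measure may be technical, and the sample numbers in the titles (1 to 5 in Tomato+, 6 to 10 in Tomato-) cannot be told apart from the fraction.

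Chloride is the main anion that balances charge when cells and their organelles move cations. ClC-3, ClC-5, ClC-6 and ClC-7, the products of the 4 CLC genes, sit on endosomes and lysosomes and exchange chloride for protons, while vacuolar proton pumps acidify the same compartments. CLIC proteins exist both as soluble proteins and in membranes. Ano6 (also called TMEM16F) is the calcium-activated scramblase that exposes phosphatidylserine on activated platelets, the surface on which clotting factor complexes assemble. Loss of the human gene underlies Scott syndrome, a bleeding disorder.

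All 10 platelet marker genes set for the check of cell type, among them Pf4, Ppbp and Itga2b, had counts in all 10 libraries, and their summed level per 1000000 counts of the library (CPM) was 44396 to 60770 in Tomato+ and 47528 to 64503 in Tomato-. Of 10 listed lymphocyte genes 9 were at 0 in every library, Cd3e and Cd79a among them. Of 12 neutrophil and monocyte genes 9 were at 0, including S100a8, Csf3r and Csf1r. The lysozyme gene Lyz2 lay between 5881 and 9029 CPM in every library, the neutrophil gene S100a9 had 240 CPM (1560 counts) in Tomato+ replicate 3 alone, and Ly6c2 had 1 count in 1 library. The red cell list summed to 1.38 to 398 CPM across Tomato+ libraries and 47.7 to 3510 CPM across Tomato- libraries. Of its means of 142 and 944 CPM, Beta-s made up 130 and 879 CPM, while Hba-a1, Hba-a2 and Slc4a1 were at 0. The endothelial list summed to 464 to 1501 and 130 to 1725 CPM. Of its means of 815 and 781 CPM, Pecam1 made up 695 and 600 CPM. Cdh5, Tek and Emcn were at 0, while Tie1 had counts in 9 libraries, Plvap in 4 and Kdr in 1. Libraries differed widely in the number of genes with at least 1 count, from 807 to 2450, and the 3 libraries with under 1000 such genes were all Tomato- (replicates 1, 2 and 5, with 902, 978 and 807).

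Clic4 had more counts than any other member in every library, and with Clcn3 it was detected (at least 1 count) in all 10. Clic1 was detected in 9 libraries, Ano6 in 4 and Clcn7 in 2, while Clcn5 and Clcn6 had 0 counts throughout. Of the 70 values (7 genes in 10 libraries) 35 were 0, and the smallest of the other 35 was 53 counts. Among all 4692 genes with a count in any library, 16.6% of nonzero values were under 10 counts. Detection in every library was uncommon, at 264 genes or 5.63% of those with any count. No member passed the test between the fractions. Of the 1016 genes that passed the expression filter and were tested with edgeR's quasi-likelihood test (Benjamini-Hochberg adjustment over all of them), 0% were called at an adjusted p under 0.05 and 0.886% had an unadjusted p under 0.05. The members that passed the filter were Clcn3, Clic1 and Clic4, and the result for Clcn3, chosen for its difference, does not count as a test. For no member did the CPM of the fractions separate without overlap, which was the case for 0.591% of the tested genes.

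**Figure D1:**
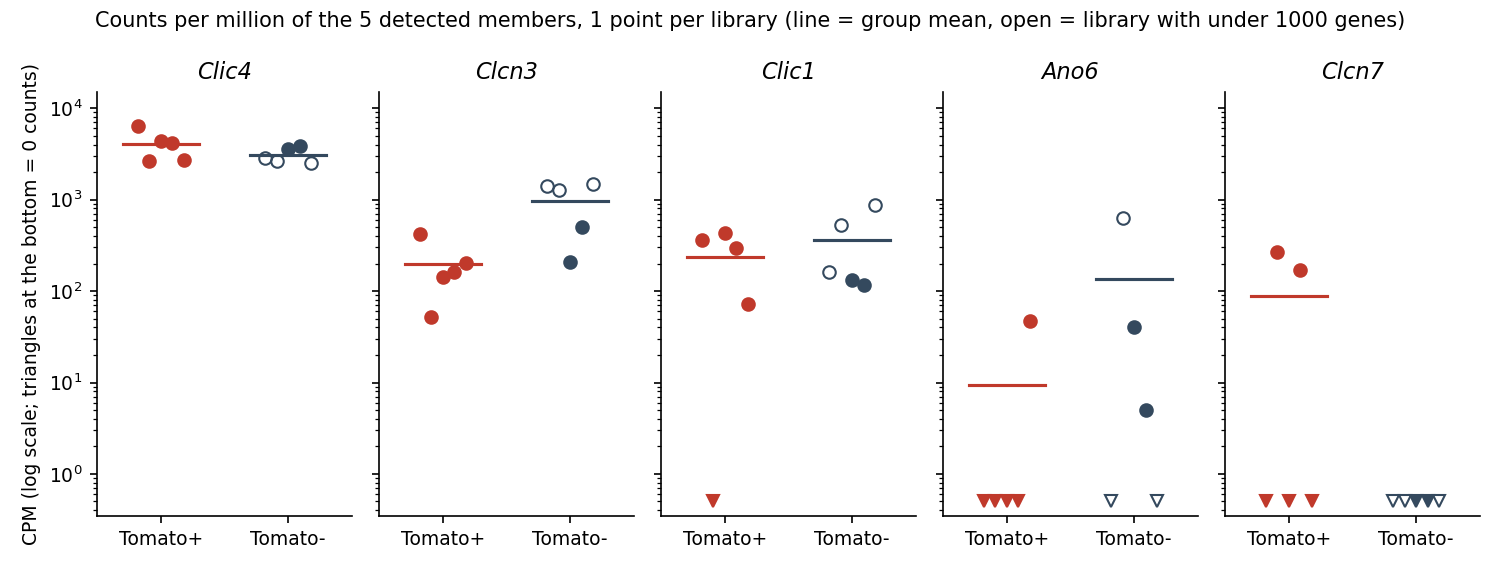
Level of the 5 detected members in each library, in CPM on a log axis, with Tomato+ in red and Tomato- in dark blue. Lines are group means of 5 libraries, open symbols are the 3 libraries with under 1000 detected genes, and triangles at the bottom are libraries with 0 counts. Clic4 varied least, from 2517 to 6448 CPM, Clcn3 was highest in the 3 open symbols, and Ano6 and Clcn7 were at 0 in most libraries.

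Clcn3, the gene of the endosomal exchanger ClC-3, lies on chromosome 8 (60910389 to 60983300, minus strand, GRCm38). In Tomato+ replicates 1 to 5 it had 417, 51.8, 142, 160 and 204 CPM. In Tomato- replicates 1 to 5 it had 1405, 1271, 208, 503 and 1477 CPM. All but 1 of the Tomato- values exceeded the highest Tomato+ value, and Tomato- replicate 3 (208 CPM) lay inside the Tomato+ range. The means were 195 ± 136 and 973 ± 578 CPM (SD, n = 5 each), a ratio of 4.99 between Tomato- and Tomato+. The fitted log2 fold change, Tomato+ over Tomato-, was -2.01 (SE 1.16). Of the tested genes 4.63% had an estimate at or below it. In a bulk library, fewer platelets that carry a transcript and less of it per platelet cannot be told apart.

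The 3 highest values of Clcn3 came from the 3 libraries with under 1000 detected genes. They lay between 1271 and 1477 CPM, whereas the 7 other libraries, of either fraction, lay between 51.8 and 503 CPM. Without these 3 libraries, Tomato- was left with 208 and 503 CPM, its mean fell to 356 CPM, the ratio to Tomato+ was 1.82 in place of 4.99, and the log2 fold change was -0.92 (SE 2.10). Detected genes moved with the fraction here as well, and their part in the difference was not tested. Within Tomato+, where every library had more than 1000 detected genes, Clcn3 still varied 8.05-fold, from 51.8 to 417 CPM. The lowest value belonged to replicate 2, which had 1421 detected genes, and the highest to replicate 1, which had 1243.

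**Figure D2:**
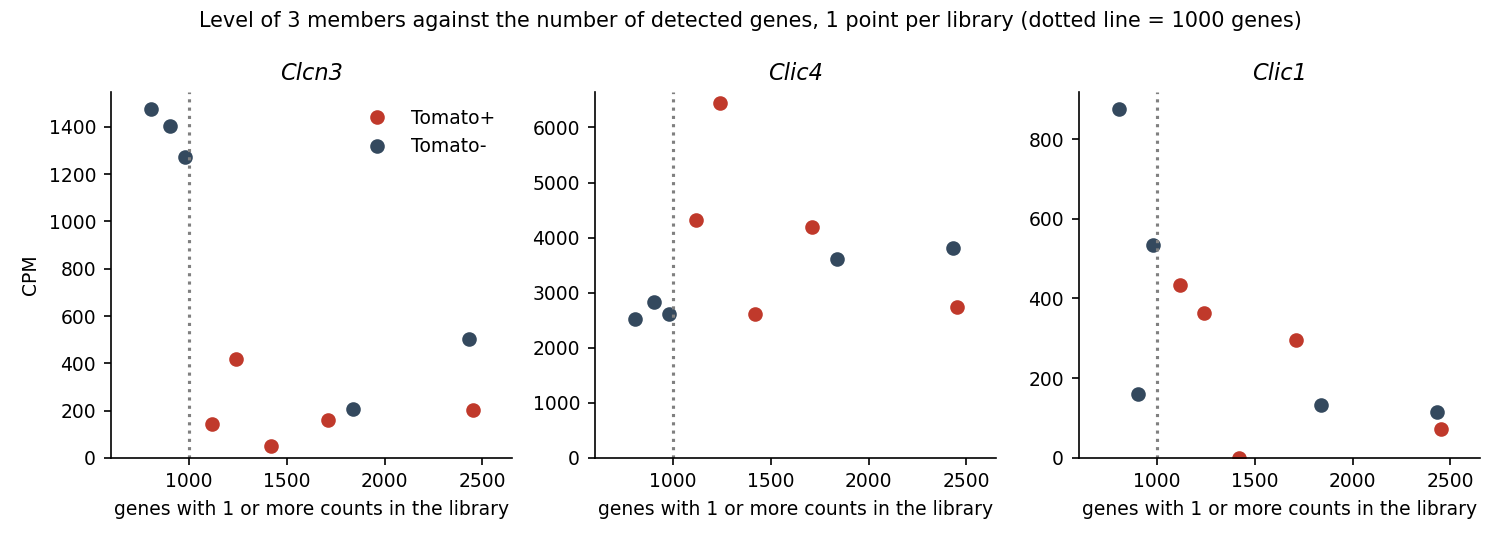
CPM of Clcn3, Clic4 and Clic1 (vertical axes) against the number of genes with at least 1 count in the library (horizontal axes), 1 point per library, Tomato+ in red and Tomato- in dark blue, with a dotted line at 1000 genes. The 3 points left of the line are Tomato- replicates 5, 1 and 2, which have the 3 highest Clcn3 values, while their Clic4 values of 2517 to 2822 CPM overlap those of the other libraries.

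Relative to Clic4 in the same library, a measure that needs no scaling between libraries, the counts of Clcn3 amounted to 1.99 to 7.47% in Tomato+. In Tomato- they amounted to 49.8, 48.7 and 58.7% in replicates 1, 2 and 5, and to 5.77 and 13.2% in replicates 3 and 4. Tomato- replicate 3 again lay within the Tomato+ range. Clic4 itself averaged 2649 CPM in the 3 libraries with under 1000 genes and 3960 CPM in the others. The ratio in those 3 libraries therefore also reflects lower Clic4. Clcn3 thus took between 1.77 and 6.68% of the counts of all 7 members in Tomato+ and between 5.22 and 32.0% in Tomato-. By CPM, which is not corrected for length, it was the 122nd to 141st most abundant gene in the 3 libraries with under 1000 genes, the 263rd in Tomato- replicate 4 and the 347th to 925th in the other 6.

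Genes with a pattern like that of Clcn3 were sought among 215 other genes with at least 10 counts in every library, predicted gene models left out, by Spearman's rho of CPM over the 10 libraries. The 5 most alike were Srxn1 (sulfiredoxin, rho 0.95), Ptgs1 (the cyclooxygenase of platelets, 0.85), Dlgap4 (0.84), Gp6 (the collagen receptor glycoprotein VI, 0.84) and Adipor1 (an adiponectin receptor, 0.81), where the median over the 215 genes was 0.03. These libraries share the 3 with few detected genes, in which all 5 had higher means than in the other 7. Srxn1 averaged 1567 CPM there and 908 CPM elsewhere, and Gp6 2092 and 468 CPM. Over the 7 other libraries rho was 0.89 for Srxn1, 0.86 for Ptgs1, 0.61 for Adipor1 and 0.57 for both Dlgap4 and Gp6. The likeness is a description over 10 and 7 libraries of a gene chosen for its difference. The 5 genes were picked as the highest of 215, so their place above the median is built in. The 7 libraries are among the 10 used to pick them, so rho over the 7 is no separate check.

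Clcn7 encodes the lysosomal exchanger ClC-7, whose loss causes osteopetrosis in mice and humans. The gene (chromosome 17, 25133391 to 25162104, plus strand) had counts in 2 libraries, Tomato+ replicates 2 and 4, at 269 and 170 CPM (3680 and 2744 counts). The other 3 Tomato+ libraries and all 5 Tomato- libraries had 0 counts. Those 2 libraries had the highest totals of all 10, 13.7 and 16.2 M counts, and after thinning to the smallest total Clcn7 still had counts in both and in no other. Clcn7 did not pass the expression filter. Without the filter, edgeR gave it an adjusted p of 0.128 over 4692 genes. In that fit 1764 of the 4692 had an unadjusted p under 0.05 and 0 were called. DESeq2 called it (adjusted p = 6.79e-16), as it did 216 genes in all, of which 180 had 0 counts in 1 fraction, and the median number of libraries with a count over its calls was 2. No fold is given for Clcn7, because the fitted value rests on a fraction at 0.

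Clcn5 (chromosome X, 7153810 to 7319358) and Clcn6 (chromosome 4, 148004259 to 148038821), the genes of the endosomal exchanger ClC-5 and of the late endosomal ClC-6, were at 0 throughout. The limit that 0 counts allow, taken as 3 counts, was 0.185 to 0.461 CPM per Tomato+ library and 0.283 to 0.554 CPM per Tomato- library. Such limits cover counting error only, as reads amplified without molecular identifiers are not independent molecules. Transcripts present in some libraries were missing in others at far higher levels. Among Tomato+ libraries Clcn7 went from 0 to 269 CPM and Clic1 from 0 to 434 CPM. The level of Clcn5 or Clcn6 in platelets is therefore not bounded by these limits.

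Clic4, on chromosome 4 (135213969 to 135272814, minus strand), encodes a CLIC protein found in the cytosol and at membranes. Tomato+ replicates 1 to 5 had 6448, 2612, 4316, 4193 and 2736 CPM. Tomato- replicates 1 to 5 had 2822, 2609, 3606, 3806 and 2517 CPM. The fractions overlapped, with 2 Tomato+ libraries inside the Tomato- range and 3, replicates 1, 3 and 4, above every Tomato- library. The means were 4061 ± 1552 and 3072 ± 593 CPM (SD, n = 5 each), with a log2 fold change of 0.56 (SE 0.32, 95% interval -0.11 to 1.24, edgeR adjusted p = 0.9996). A Tomato+ level 2-fold that of Tomato- lay inside the interval. With library totals in place of trimmed-mean (TMM) factors the estimate was 0.40, and without the 3 libraries with under 1000 genes it was 0.14 (edgeR adjusted p = 0.999997). Over all tested genes the median log2 fold change was 0.21 with TMM factors and -0.03 with library totals, a shift of 0.24.

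Ranked by CPM without regard to length, Clic4 lay between rank 22 (Tomato+ replicate 1) and rank 73 (Tomato- replicate 5) of its library's genes. It carried 87.0 to 89.4% of the counts of the 7 members in Tomato+. In Tomato- its share was 64.3, 51.7 and 51.7% in replicates 1, 2 and 5, and 90.4 and 85.9% in replicates 3 and 4. The genes most like it over the 10 libraries were Ninj1 (ninjurin 1, a cell surface protein of membrane rupture, rho 0.89), Dap (death-associated protein, 0.79), Esd (esterase D, 0.71), Skap2 (an adaptor of Src family kinases, 0.71) and Aldoa (an aldolase, 0.70), with a median of -0.01 over the 215 genes. All 5 had a higher mean in the 7 libraries with at least 1000 genes than in the other 3. Over those 7 libraries rho ranged from 0.43 for Skap2 to 0.82 for Ninj1. These 5 were picked as the highest of the 215 genes over libraries that include those 7. Their place above the median is therefore built in, and rho over the 7 is no separate check. Clcn3 and Clic4 themselves had a rho of -0.38 over the 10 libraries.

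Clic1 lies in the major histocompatibility region of chromosome 17 (35049966 to 35058749, plus strand), and mice without its protein were described with reduced platelet activation. Tomato+ replicates 1 to 5 had 363, 0, 434, 297 and 73.0 CPM. Tomato- replicates 1 to 5 had 161, 533, 133, 116 and 874 CPM. The fractions overlapped, and the library at 0, Tomato+ replicate 2, had 13.7 M counts, more than all but 1 other library. The means were 233 ± 188 and 363 ± 334 CPM (SD, n = 5 each), and the log2 fold change was -0.30 (SE 1.84, 95% interval -4.21 to 3.61, edgeR adjusted p = 0.9996). The interval is wide enough to hold differences of more than 8-fold in either direction. The highest values were those of Tomato- replicates 5 and 2, which had under 1000 detected genes. Without those 2 and replicate 1, Tomato- was left with 133 and 116 CPM and the estimate was 0.97, and without replicate 5 alone it was 0.26, with a Tomato- mean of 236 CPM.

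Ano6 is on chromosome 15 (95790843 to 95974751, plus strand). It had counts in Tomato- replicates 2, 3 and 4, at 630, 40.4 and 5.0 CPM (5039, 427 and 53 counts), and in Tomato+ replicate 5, at 47.1 CPM (540 counts). The other 2 Tomato- and 4 Tomato+ libraries had 0 counts. The means of 9.41 ± 21.1 CPM (Tomato+) and 135 ± 277 CPM (Tomato-), each with its SD over 5 libraries, rest on 1 library each. The Tomato- mean was 11.4 CPM once replicate 2 was left out, and the Tomato+ mean was 0 once replicate 5 was left out. Ano6 did not pass the expression filter, and without the filter edgeR gave an adjusted p of 0.663 over 4692 genes. Its exons overlap those of A130051J06Rik and Gm49172 on the opposite strand over 336 bases (2.74% of its exons), where reads cannot be told apart if strand was not counted.

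Levels of different genes can be compared only per length, since full-length libraries give long transcripts more reads. Per kilobase of annotated exon (the union over transcripts, 1.80 kb for Clic1, 6.57 kb for Clic4 and 17.1 kb for Clcn3), Clic4 had 618 ± 236 CPM per kb in Tomato+ and 467 ± 90.3 in Tomato-. Clic1 followed with 130 ± 104 and 202 ± 185 CPM per kb. Clcn3 had 11.4 ± 7.97 and 57.0 ± 33.8, Clcn7 16.6 ± 23.6 and 0, and Ano6 0.767 ± 1.72 and 11 ± 22.6 CPM per kb (SD, n = 5 each). Clic4 was above Clcn3 in 10 of 10 libraries and above Clic1 in 9. Clic1 was above Clcn3 in 9 libraries by the exon union but in 7 by the longest coding transcript, which is 5684 bases for Clcn3. The order in single libraries thus depends in part on the length used. By either length the mean of Clic1 was above that of Clcn3 in both fractions. Clcn3 and Clcn7 lay within each other's spread in Tomato+, and Clcn3 was above Ano6 in 10 of 10 libraries. Of all 50-base stretches in the annotated transcripts of each member, at most 3.66% (Clic1) also occur in a transcript of another gene, 2.74% for Ano6, 2.42% for Clic4 and 0.516% for Clcn3.

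**Figure D3:**
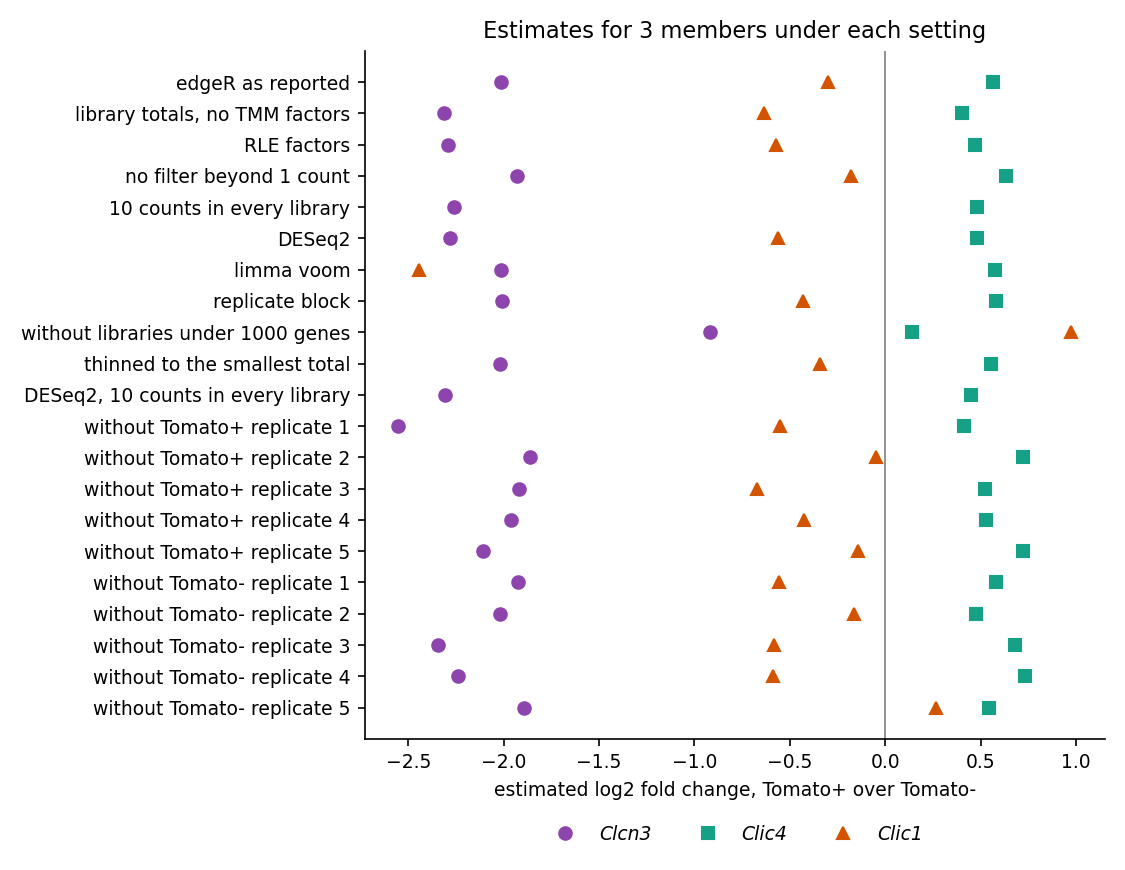
Estimated log2 fold change (horizontal axis, Tomato+ over Tomato-) of Clcn3 (circles), Clic4 (squares) and Clic1 (triangles) under each setting (rows), with a grey line at 0. Clcn3 stayed below 0, between -2.55 and -0.92, Clic4 stayed above 0, between 0.14 and 0.73, and Clic1 ran from -2.45 to 0.97. None of these points is a called difference in edgeR. Clcn3 was called in DESeq2 limited to genes with 10 counts in every library. That is no test of it, because Clcn3 was chosen for its difference.

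Partner proteins of the CLC exchangers were detected irregularly. Ostm1, the subunit that ClC-7 needs for stability, had counts in 4 libraries, at 260 and 76.1 CPM in Tomato+ replicates 2 and 5 and at 191 and 216 CPM in Tomato- replicates 3 and 4. Tomato+ replicate 2 was the 1 library with counts of both Clcn7 and Ostm1. Tmem9b, an accessory subunit of ClC-3, ClC-4 and ClC-5, had 659, 262, 0.615, 145 and 410 CPM in Tomato+ replicates 1 to 5, where replicate 3 had 4 counts, and was detected in 2 Tomato- libraries. The means were 295 ± 253 and 108 ± 167 CPM (log2 fold change 1.39, SE 2.47, edgeR adjusted p = 0.9996, n = 5 each). All 3 Tomato- libraries at 0 were those with under 1000 genes, the mean of the other 2 was 269 CPM, and without replicate 4 the Tomato- mean was 39.0 CPM. The plasma membrane channel genes Clcn1 and Clcn2, the exchanger gene Clcn4-2 and the accessory gene Tmem9 were at 0 in all libraries. So were Clic3, Clic5, Clic6, the CLIC-like gene Clcc1 and the 9 other anoctamins.

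Genes of lipid scrambling and flipping other than Ano6 had counts for 10 of 19. Those with the highest CPM were Nptn and Bsg, whose proteins are partners of the scramblase Xkr8, with Xkr8 itself at 0. Nptn was detected in all 10 libraries, and averaged 2178 ± 394 CPM over Tomato+ and 3141 ± 828 CPM over Tomato- libraries. Bsg averaged 743 ± 239 CPM over Tomato+ and 356 ± 333 CPM over Tomato- (SD, n = 5 each), with 0.125 and 0 CPM in Tomato- replicates 2 and 5. Vmp1, a scramblase of the endoplasmic reticulum, had 103 ± 93.9 and 210 ± 358 CPM, and without Tomato- replicate 1 the mean of that fraction was 52.3 CPM, below that of Tomato+. Of the 4 tested genes of this list none passed, the estimate was above 0 for 2 and below 0 for 2, and their median log2 fold change was 0.39 beside 0.21 for all tested genes. Tmem30a, the chaperone subunit of the flippases, had counts in Tomato- replicate 2 (742 CPM), the library with the highest Ano6, and in Tomato+ replicate 5 (69.3 CPM), the 1 Tomato+ library with Ano6. Tmem30a was at 0 in Tomato- replicates 3 and 4, which had counts of Ano6, and it is named after its values were seen. Atg9a, of the same list, had counts in the same 2 libraries alone (198 and 18.6 CPM). Of all genes with a count, 770 (16.4%) were detected in exactly 2 libraries, so the shared libraries show no link with Ano6. Tomato+ replicate 5 had the most detected genes of all libraries, 2450.

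Other chloride pathways were sparse. Of 6 rows for volume- and acid-activated anion channels, 3 had counts, and Lrrc8a, the obligatory subunit of the volume-regulated channel, was at 0. Lrrc8b had 121 ± 120 and 29.5 ± 54.0 CPM, with a Tomato- mean of 5.8 CPM without replicate 3. Lrrc8c had 41.5 ± 54.8 and 151 ± 331 CPM. Its Tomato- mean was 5.66 CPM without the 3 libraries with under 1000 genes and 2.83 CPM without replicate 2, and its Tomato+ mean was 18.7 CPM without replicate 4. Lrrc8d had 106 CPM in Tomato+ replicate 5 alone. Clca1, whose row may hold the gene now named Clca3a1, because the table uses older symbols of that family, averaged 67.6 CPM over Tomato+ libraries (SD 72.3), and its Tomato- values were 896, 0, 1.89, 100.3 and 0 CPM in replicates 1 to 5, and its Tomato- mean was 25.6 CPM without replicate 1. Ttyh3, of the tweety family, had counts in 2 libraries. Of 17 chloride cotransporters, anion exchangers and their kinases, 15 were at 0, and Wnk4 and Slc12a7 had counts in 1 library each. Of the 3 tested genes in these lists (Lrrc8b, Lrrc8c and Clca1) none passed (edgeR adjusted p = 0.9996 each).

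The vacuolar proton ATPase, which acidifies the compartments where the CLC exchangers work, had counts for 13 of 18 listed genes. Atp6v0e and Atp6v1f were detected in all 10 libraries. Atp6v0e averaged 592 ± 380 CPM over Tomato+ and 956 ± 786 CPM over Tomato-, Atp6v1f 353 ± 241 and 837 ± 343 CPM, and Atp6v0b 66.1 ± 132 and 198 ± 255 CPM (SD, n = 5 each). With Tomato- replicate 2 left out, the Tomato- mean was 615 CPM for Atp6v0e and 119 CPM for Atp6v0b, and with Tomato+ replicate 2 left out the Tomato+ mean of Atp6v0b was 7.1 CPM. Of the 4 tested genes the estimate was above 0 for 1 and below 0 for 3, with a median log2 fold change of -0.65, and none passed. The Tomato+ values of Atp6v1f were 1.38 CPM (9 counts, replicate 3) to 598 CPM. Its Tomato- values were 588 to 1420 CPM, so the fractions overlapped. Without the libraries with under 1000 genes the Tomato- mean of Atp6v1f was 597 CPM. Among 25 dense granule and lysosome genes 14 had counts. Lamp1 and Lamp2, the main lysosomal membrane glycoproteins, had 1332 ± 558 and 1184 ± 1034 CPM, and 1086 ± 483 and 895 ± 339 CPM. Without the libraries with under 1000 genes the Tomato- means were 1821 CPM for Lamp1 and 1151 CPM for Lamp2, both above Tomato+. Dtnbp1, a subunit of the complex that forms lysosome-related organelles, was detected in 3 Tomato+ libraries and in 1 of Tomato-. Lamp1 and Lamp2 were the 2 tested genes of the list, and neither passed (edgeR adjusted p = 0.9996 each).

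**Figure D4:**
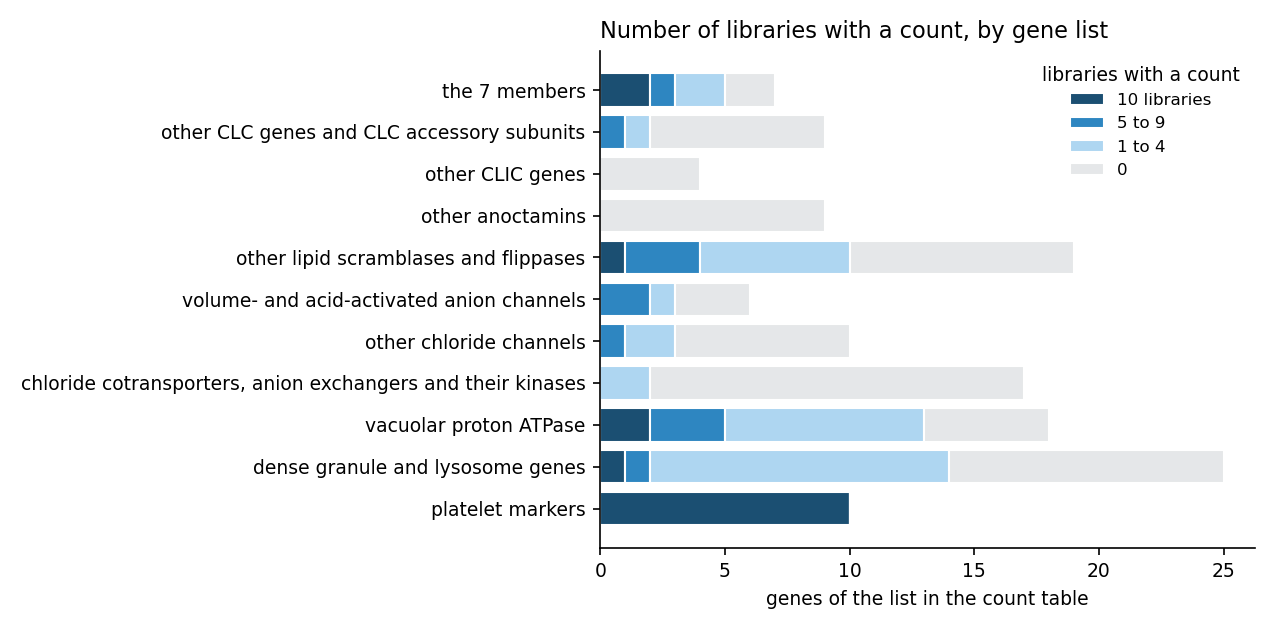
Number of genes (horizontal axis) with a count in 10, in 5 to 9, in 1 to 4 or in 0 libraries, stacked by gene list (rows). Of the 7 members 2 were in all libraries and 2 in none, all 9 other anoctamins and all 4 rows of the other CLIC genes were in none, and all 10 platelet markers were in every library.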

How the data were processed

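Raw read counts by gene symbol, unnormalized, were deposited by the authors for the 10 libraries. Trimmomatic, FastQC, STAR, featureCounts and the build mm10 are named in the submitters' processing notes. For strand, multiply aligned reads and annotation, the setting used was not given in the sources used here. CPM used the sum of all rows. Coordinates and lengths came from GENCODE M21 (GRCm38).

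The main test was edgeR 4.0.16 under R 4.3.3 (robust quasi-likelihood F test, TMM factors, default expression filter with minimum count 10 and minimum total 15, group as the sole term, Benjamini-Hochberg threshold 0.05), checked on simulated counts. The pass limits of the simulation were set at a fixed spread between replicates, not at the spread estimated here. The check therefore does not show which differences the test could find in these libraries. Each SE is the log2 fold change divided by the root of F. Alternatives used DESeq2 1.42.0, limma 3.58.1 (voom), other scalings and filters, thinned counts and omitted libraries. All 45 pairs of libraries differed beyond sampling noise (chi-square per degree of freedom at least 510).

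The members and gene lists were chosen with earlier results of these data known. Named genes are the 7 members, the 3 genes with the highest mean CPM of each list of chloride transport, lipid scrambling, proton ATPase and granule genes, and the 5 genes most like each member detected in all libraries. Cell type markers and genes named as being at 0 stand outside this rule, as do Tmem30a and Atg9a, and were named after their values were seen.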

Additional observations from a re-analysis of the deposited data

Results flagged for a closer look

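Each of 9 groups of 5 libraries in which a member's CPM varied was checked for a library far from the others (Dixon's ratio of the gap to the nearest library over the range, above the 95% critical value for 5 libraries). Chance flags about 1 in 20 groups of normally distributed values, and whether CPM follow that distribution was not tested. The check picked out 2 libraries, both for Ano6. Ano6 was at 630 CPM in Tomato- replicate 2, where the next highest Tomato- library had 40.4 CPM. It was at 47.1 CPM in Tomato+ replicate 5, where the other 4 Tomato+ libraries had 0 counts. With 4 values at 0 the ratio is 1 by construction, so that the rate given for chance does not apply to it. In Tomato-, Ano6 had 0 counts in replicates 1 and 5, so the rate does not hold there either.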

How the results depend on the processing

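The count of genes called between the fractions was 0 with edgeR in all its settings, including each omitted library. It was 216 with DESeq2 and 1 (Ctla2a) with limma voom. It was 2 with DESeq2 limited to the 225 genes that reach 10 counts in each library, an alternative chosen after seeing the data. Those 2 were Tug1 and Clcn3. Because Clcn3 was chosen for this difference, its call is not a test of it. Clcn3 and Clic4 kept their sign in 20 of 20 alternatives. These refit the same counts, and Clcn3 was chosen for its sign, so this does not test the difference of Clcn3. Without the libraries with under 1000 genes the log2 fold change of Clcn3 was -0.92 (SE 2.10). With 1 library left out, the log2 fold change ranged from -2.55 to -1.86 for Clcn3, from 0.41 to 0.73 for Clic4 and from -0.67 to 0.26 for Clic1, where the positive value came without Tomato- replicate 5. Clic1 was also positive (0.97) without the 3 libraries with under 1000 genes. The cause was not tested. Correlations of same-numbered libraries were -0.11 to 0.12 (best partner in 2 of 5), which cannot tell whether such libraries came from the same animal. With the replicate block edgeR called 0 genes, with log2 fold changes of -2.01 for Clcn3, 0.58 for Clic4 and -0.43 for Clic1. Thinning to 5411417 counts or requiring 10 counts changed no member's number of libraries. At these totals the limits from counting error, under 1 CPM, were far below the spread between libraries.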
